A study of Caenorhabditis elegans with 8 samples.

Results

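Cytosolic ribosomal proteins are the protein components of the ribosomes that translate nuclear-encoded mRNA. The 79 genes described here were taken by name from the deposited count table: every row whose gene name starts with rpl-, rps- or rla- followed by a digit, out of 46748 genes. They comprise 45 rpl genes (large subunit), 31 rps genes (small subunit) and 3 rla genes (the acidic stalk of the large subunit). Membership rests on the name alone and not on any measured value, and all 79 genes passed the filter on low counts that left 11378 genes for testing.

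The libraries came from neurons of Caenorhabditis elegans strain OH10689. This strain carries otIs355 [rab-3(prom1)::2xNLS-TagRFP] IV, a transgene whose rab-3 promoter, active in neurons, makes a red fluorescent protein in their nuclei. The worms were untreated, and the cells were collected by fluorescence-activated sorting. Total RNA of 4 samples was each divided between SoLo Ovation and SMARTseq V4 (the SMARTseq cDNA then going through Nextera XT), so that 4 SoLo and 4 SMARTseq libraries share strain, sort and RNA and differ in the kit. The question of the comparison is how the choice of kit changes the counts of each gene. The labels give neither the age of the worms nor a culture or sort for each RNA sample, so the p-values reflect only how these samples vary, and that variation may be technical.

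The ribosomal proteins are needed in equal copy number, apart from the stalk proteins, and their mRNAs are short, abundant, spliced and polyadenylated in every cell type, neurons included. As background on the kits, SMARTseq V4 primes cDNA on the poly(A) tail, whereas SoLo does not need that tail and removes ribosomal RNA sequences after the library is made. Several worm ribosomal protein genes carry small nucleolar RNAs (snoRNAs) in their introns, and 4 of them, rpl-1, rpl-3, rpl-7A and rpl-12, are known in worms for alternative splice forms that make no protein and are removed by mRNA surveillance.

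Library totals lay between 2354681 and 7099497 gene counts. All 10 pan-neuronal markers passed the filter, with a summed level of 12028 to 16113 CPM (reads of the gene scaled by the TMM-adjusted size of the library) in SoLo libraries and 13658 to 17731 CPM in SMARTseq libraries. Of the marker lists of other cells, 5 of 5 body wall muscle genes passed (6819 to 8717 CPM in SoLo, 13417 to 17926 CPM in SMARTseq), as did 6 of 6 germline genes (114.7 to 198 CPM in SoLo, 121 to 304 CPM in SMARTseq). Intestine passed with 4 of 6 genes, hypodermis with 4 of 5 and glia with 1 of 3. Their sums here take in every gene of the list, also those that did not pass. For intestine the sum was 247 to 411 CPM in SoLo and 96.0 to 143 CPM in SMARTseq. Hypodermis had 125 to 199 CPM in SoLo and 1154 to 1886 CPM in SMARTseq. Glia had 6.001 to 11.8 CPM in SoLo and 6.55 to 20.3 CPM in SMARTseq. Of these lists elt-2, ges-1, dpy-7, ptr-10 and fig-1 stayed below the filter. Other genes of the intestine and hypodermis lists did not, such as asp-1 (mean 131 CPM in SoLo) and col-140 (mean 1222 CPM in SMARTseq). The part of these cells in the values below was not tested.

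Ribosomal protein genes took a larger share of the reads in SoLo than in SMARTseq in each of the 4 RNA samples. Their share of all gene counts was 2.25%, 3.77%, 4.28% and 4.23% in SoLo libraries 1 to 4, against 1.41%, 2.62%, 2.73% and 2.95% in SMARTseq libraries 1 to 4. The means were 3.63% ± 0.950 in SoLo and 2.43% ± 0.694 in SMARTseq (SD, n = 4 each), and the ranges of the kits overlap only through the low SoLo library of RNA sample 1. Within an RNA sample the SoLo share was 1.60, 1.44, 1.57 and 1.43 times the SMARTseq share. Small-subunit genes took 1.39% ± 0.385 in SoLo and 0.750% ± 0.222 in SMARTseq, and large-subunit genes took 1.98% ± 0.483 in SoLo and 1.47% ± 0.399 in SMARTseq. The genes rpl-12 and rpl-7A ran the other way, with 0.0999% ± 0.0295 of the counts in SoLo and 0.459% ± 0.134 in SMARTseq. Without this pair the members took 3.53% ± 0.920 in SoLo and 1.97% ± 0.560 in SMARTseq.

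**Figure D1:**
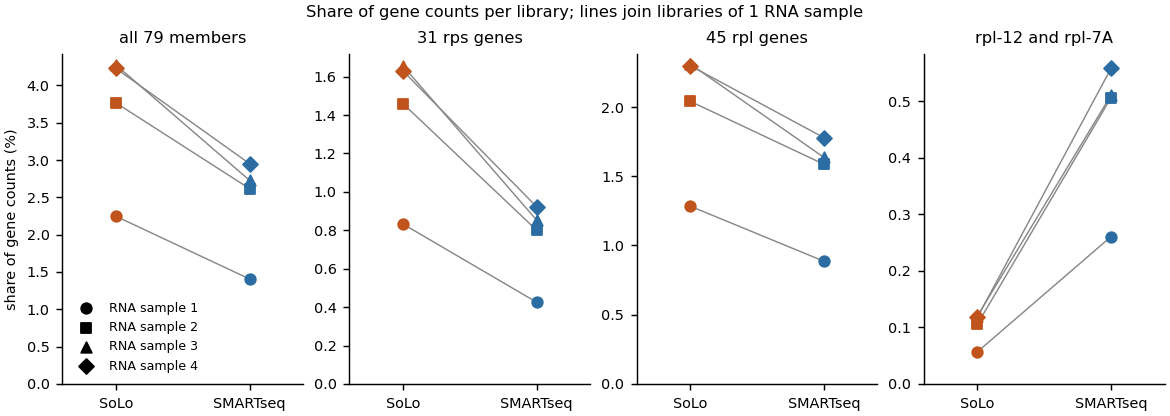
Share of all gene counts (%, linear axis from 0) per library for all 79 genes, for the rps genes, for the rpl genes and for rpl-12 with rpl-7A, with lines joining the SoLo and the SMARTseq library of 1 RNA sample. The 79 genes took 2.25% to 4.28% in SoLo and 1.41% to 2.95% in SMARTseq with every line going down to SMARTseq, whereas the lines of rpl-12 and rpl-7A go up.

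RNA sample 1 stood apart in both kits. In SoLo, 77 of 79 members were lower in library 1 than in every other SoLo library, and the median member was 1.85-fold below the mean of libraries 2 to 4. In SMARTseq this held for 78 of 79 members, with a median of 1.98-fold. The exceptions were rpl-24.2 and rpl-42 in SoLo and rpl-42 in SMARTseq. Over all tested genes, 39.6% were lowest in library 1 of SoLo and 34.3% in library 1 of SMARTseq, with median log2 differences of -0.06 in SoLo and -0.04 in SMARTseq. The marker sums also differed in library 1. The germline sum was lowest there, with 114.7 CPM beside 155 to 198 CPM in the other SoLo libraries and 121 CPM beside 213 to 304 CPM in the other SMARTseq libraries. Of the 6 germline genes, 4 were lowest there in SoLo and 3 in SMARTseq. All 4 hypodermis genes that passed the filter were lowest there in both kits. The 4 intestine genes that passed summed highest there, with 409 CPM beside 247 to 314 CPM in SoLo and 142 CPM beside 95.4 to 110 CPM in SMARTseq. The body wall muscle sum was lowest in library 1 of both kits (6819 CPM in SoLo, 13417 CPM in SMARTseq) through act-4 and unc-54. Of the 5 genes, 3 were highest there in SoLo (unc-15, mlc-3 and myo-3) and 1 in SMARTseq (unc-15). The pan-neuronal sum was highest in library 1 (16113 CPM in SoLo, 17731 CPM in SMARTseq), through egl-3 in both kits and sbt-1 in SoLo. In SMARTseq sbt-1 was highest in library 4 (8662 CPM, beside 8522 CPM in library 1). Without egl-3 and sbt-1 the sum was 4034 CPM beside 3978 to 4536 CPM in SoLo and 2714 CPM beside 2626 to 2766 CPM in SMARTseq. In library 1 of each kit 4 of the 10 pan-neuronal genes were lowest, among them snb-1, ric-4 and unc-64. Highest there were 4 genes in SoLo and 3 in SMARTseq, with unc-10, unc-104 and egl-3 among them in both kits. The part of these cells in the lower ribosomal protein level was not tested, and in these bulk samples fewer cells of a type and less RNA per cell cannot be told apart.

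Because each RNA sample went into both kits, the kit difference could also be read within each RNA sample, where it varied little. The median of log2(SoLo/SMARTseq) over the 79 members, computed on CPM plus 0.5, was 0.48 in RNA sample 1, 0.29 in sample 2, 0.51 in sample 3 and 0.36 in sample 4. For the median member this ratio had an SD of 0.13 over the 4 RNA samples, against 0.44 for the median tested gene. In comparison, the SD of log2 CPM over libraries of 1 kit was 0.45 in SoLo and 0.50 in SMARTseq for the median member. Across the 79 genes, which are not independent replicates, the ratios in any pair of RNA samples had Spearman correlations of 0.90 to 0.94; the libraries compared share the kit.

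**Figure D2:**
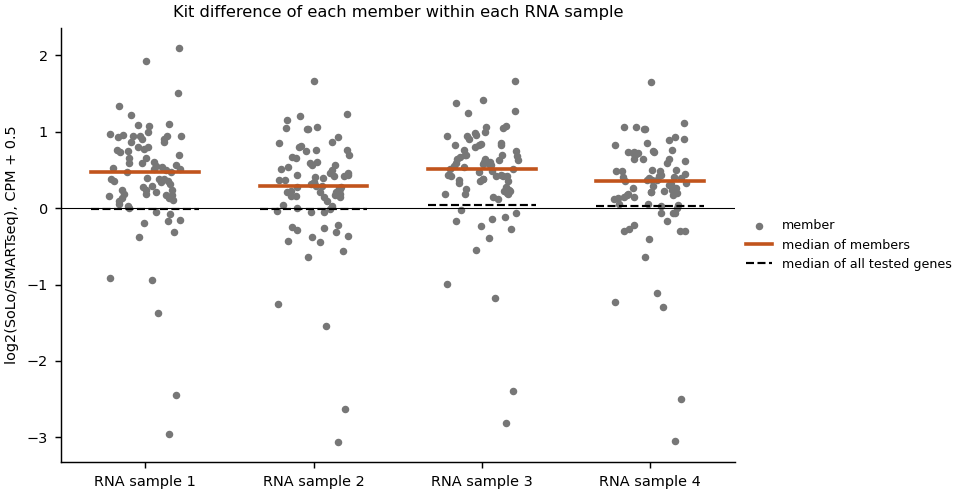
Each point is the log2(SoLo/SMARTseq) ratio of 1 member within 1 RNA sample (CPM plus 0.5), with the median of the members as a solid line and that of all tested genes as a dashed line. The member medians were 0.48, 0.29, 0.51 and 0.36, and rpl-12 and rpl-7A are the lowest points in each RNA sample.

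In edgeR's quasi-likelihood test with Benjamini-Hochberg adjustment over the 11378 tested genes, called at an adjusted p under 0.05, 13 members were higher in SoLo and 4 were higher in SMARTseq, while 62 were called in neither direction. The background was 20% of all tested genes higher in SoLo and 27.6% higher in SMARTseq. In this fit, which does not pair the libraries of an RNA sample, the members' share of calls in either direction lay below that of the table. The fitted difference was positive (higher in SoLo) for 64 members and negative for 15, and the median log2 fold change was 0.41 (quartiles 0.16 and 0.71), beside 0.01 for all tested genes and -0.01 for tested protein-coding genes, of which 18.4% were called higher in SoLo and 27.8% higher in SMARTseq. At an unadjusted p under 0.05 there were 24 members, counting both directions. The share of all tested genes at this cut is not given here. It cannot be lower than the 47.6% called after adjustment, so the count of 24 shows no excess of differences among the members. In simulated data this fit called 4.17% of genes changed 2-fold. Only 200 genes were changed there, which makes the adjustment stricter than in the data, where 47.6% of tested genes were called. The 4.17% is therefore not the rate for these data, and a member that was not called may still differ between the kits. Past 2-fold as well as called were 6 members in SoLo (background 13.4%) and 4 in SMARTseq (background 24.7%). With the RNA sample number as a replicate block, 52 members were higher in SoLo (background 28.9%) and 8 higher in SMARTseq (background 32.2%), and all 17 calls of the fit without the block remained with the same sign. Without RNA sample 1 there were 48 calls for SoLo (background 26.2%) and 9 for SMARTseq (background 32.2%). Without SoLo library 1 alone there were 39 for SoLo (background 19.6%) and 4 for SMARTseq (background 27.5%). Leaving out SMARTseq library 1 alone gave 13 for SoLo (background 23.7%) and 8 for SMARTseq (background 29.7%), with a median of 0.18.

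Scaling moved the level from which these differences are read. With library totals in place of TMM factors the median of all tested genes was 0.56 and that of the members 0.95, and 56 members were higher in SoLo (background 38%) and 2, rpl-12 and rpl-7A, higher in SMARTseq (background 21%). The median of the members stood 0.39 above that of all tested genes under both scalings. Upper-quartile factors gave 25 calls for SoLo (background 26.7%) and 4 for SMARTseq (background 24.7%), and DESeq2 gave 22 for SoLo (background 16.7%) and 4 for SMARTseq (background 19.2%). When RNA samples 2 to 4 were summed to 1 library in each kit, 0 members passed for SoLo (background 3.39%) and rpl-12 alone for SMARTseq (background 5.89%), and the replicate block on these sums gave 55 for SoLo (background 22.9%) and 5 for SMARTseq (background 26%). By direction alone, with no test, 60 members were higher in SoLo in all 4 RNA samples (33.7% of all tested genes were) and 11 were higher in SMARTseq in all 4 (34.1% of all tested genes were). Every SoLo library lay above every SMARTseq library for 8 members (background 21.2%), every SMARTseq library above every SoLo library for 3 (background 25%), and the kits overlapped for 68.

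**Figure D3:**
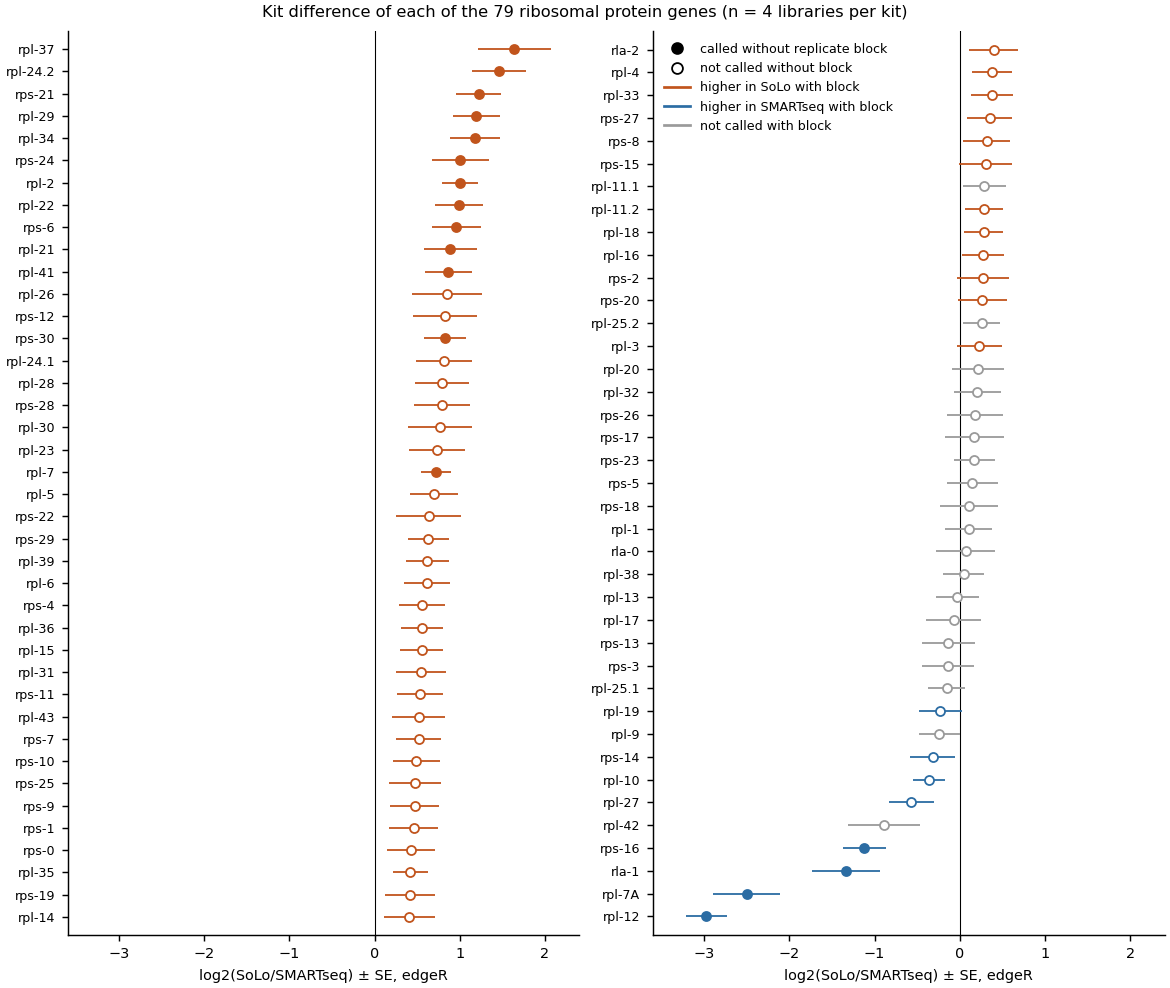
Log2(SoLo/SMARTseq) of each of the 79 genes with its standard error from edgeR (4 libraries per kit), highest at the top left and lowest at the bottom right; filled points were called without the replicate block, and the colour gives the call with it. The values run from 1.64 for rpl-37 to -2.98 for rpl-12, and most lie between 0 and 1.

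The stalk of the large subunit recruits the elongation factors. Of its 4 genes, 0 were higher in SoLo (background 20%) and 2, rpl-12 and rla-1, were higher in SMARTseq (background 27.6%). The member with the largest difference in favour of SMARTseq was rpl-12, whose protein (165 residues) binds ribosomal RNA at the base of the stalk. The gene lies on the minus strand of chromosome IV, 13239587 to 13240651 on build WBcel235, with 800 exonic bases in 4 exons, none of them under an exon of another gene. It had 259, 405, 448 and 434 CPM in SoLo libraries 1 to 4, against 2011, 3392, 3145 and 3607 CPM in SMARTseq libraries 1 to 4. The lowest SMARTseq library stood far above the highest SoLo library. The log2 fold change was -2.98 ± 0.24 (SE; adjusted p = 9.4e-06), a level 7.86-fold higher in SMARTseq, and it stayed between -3.16 and -2.79 when any 1 library was left out. Within RNA samples 1 to 4 the log2 ratio was -2.95, -3.06, -2.81 and -3.05.

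The gene rla-1 encodes one of the acidic proteins that form the arms of the stalk. It lies on chromosome I, 2069086 to 2069575, minus strand, and 2.95% of its 441 exonic bases lie opposite an exon of arl-13, so that reads of the 2 genes there cannot be told apart without the strand setting of the counting. Its level was 137, 328, 408 and 412 CPM in SoLo libraries, against 356, 959, 921 and 1015 CPM in SMARTseq libraries. SMARTseq was higher in each RNA sample, and the kits overlapped only through the low SMARTseq library of RNA sample 1. The log2 fold change was -1.34 ± 0.40 (adjusted p = 0.021); the call was lost with library totals and without SoLo library 2.

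The other acidic arm protein, rla-2, averaged 181 ± 51.2 CPM in SoLo and 138 ± 41.1 CPM in SMARTseq (SD, n = 4 each), a log2 difference of 0.40 ± 0.29 that did not pass (adjusted p = 0.29) without the block and passed with it (adjusted p = 0.0061). The arm's anchor, rla-0, lies on chromosome I, 10567894 to 10569017. It had 818, 1714, 1933 and 1867 CPM in SoLo libraries, against 705, 1767, 1747 and 1829 CPM in SMARTseq libraries. Library 1 was by far the lowest in both kits, the kits overlapped, and the log2 difference was 0.07 ± 0.34 (adjusted p = 0.89). The 4 stalk genes therefore spanned from -2.98 to 0.40 on the log2 scale between the kits.

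The second large difference in favour of SMARTseq was in rpl-7A, a large-subunit protein of 265 residues. The gene lies on chromosome IV, 4389143 to 4390590, minus strand, with 857 exonic bases, of which 7.82% lie opposite an exon of the non-coding gene Y24D9A.11. It had 205, 473, 543 and 550 CPM in SoLo libraries, against 1123, 2938, 2859 and 3105 CPM in SMARTseq libraries. The kits did not overlap, and the log2 fold change was -2.50 ± 0.39 (adjusted p = 0.00061), 5.66-fold higher in SMARTseq. Within RNA samples 1 to 4 the log2 ratio was -2.45, -2.63, -2.40 and -2.50, so the low library of RNA sample 1 was low in both kits alike. Of the 4 genes known for unproductive splicing, rpl-12 and rpl-7A were thus both higher in SMARTseq, whereas rpl-1 (log2 difference 0.10 ± 0.28, adjusted p = 0.78) and rpl-3 (0.23 ± 0.27, adjusted p = 0.52) did not pass. With the block rpl-3 passed as higher in SoLo (adjusted p = 0.016). The deposited table counts genes and does not separate splice forms.

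The fourth member called higher in SMARTseq was rps-16, a protein of the head of the small subunit. It lies on chromosome V, 15000018 to 15000541, minus strand, and 2.5% of its 480 exonic bases lie opposite an exon of T01C3.11. Its level was 150, 218, 257 and 239 CPM in SoLo libraries, against 283, 523, 510 and 562 CPM in SMARTseq libraries. No SoLo library reached the lowest SMARTseq library. The log2 fold change was -1.12 ± 0.25 (adjusted p = 0.0045), and the call was lost with library totals.

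With the block, 4 further members were higher in SMARTseq, named here after their values were seen. They were rpl-27 (log2 fold change -0.55, adjusted p = 0.00013), rpl-10, which joins the large subunit late in the cytoplasm (-0.36, adjusted p = 0.0021), rps-14 of the small-subunit platform (-0.30, adjusted p = 0.0097), and rpl-19, which spans both subunits (-0.22, adjusted p = 0.034). Without the block none of these passed, and with library totals rpl-10, rps-14 and rpl-19 had positive values (0.18, 0.22 and 0.31).

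Among the 13 members called higher in SoLo, 9 encode large-subunit and 4 small-subunit proteins. The largest difference was in rpl-37, a zinc-binding large-subunit protein of 91 residues encoded by a single exon on chromosome III, 3528642 to 3528917. It had 31.5, 81.9, 74.4 and 86.5 CPM in SoLo libraries, against 7.96, 25.5, 27.5 and 27.2 CPM in SMARTseq libraries. All SoLo libraries were above all SMARTseq libraries, and library 1 was low in each kit. The log2 fold change was 1.64 ± 0.43 (adjusted p = 0.011), 3.12-fold higher in SoLo.

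Next came rpl-24.2, whose human counterpart is a factor of large-subunit assembly rather than a part of the finished ribosome. It had 21.9, 13.4, 22.7 and 23.2 CPM in SoLo libraries, against 4.74, 7.72, 6.82 and 10.4 CPM in SMARTseq libraries. The kits did not overlap, and here library 2 was the low one in SoLo. The log2 fold change was 1.46 ± 0.31 (adjusted p = 0.0039) at a low depth of 38 to 95 reads per SoLo library and 28 to 39 per SMARTseq library.

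Short large- and small-subunit genes made up the next group. The small-subunit gene rps-21 (88 residues) had 184, 316, 337 and 307 CPM in SoLo libraries, against 72.5, 142, 130 and 146 CPM in SMARTseq libraries, with a log2 fold change of 1.22 ± 0.27 (adjusted p = 0.0041). The large-subunit gene rpl-29 (62 residues) had 171, 283, 285 and 260 CPM in SoLo libraries, against 60.0, 120, 118 and 138 CPM in SMARTseq libraries, with 1.19 ± 0.27 (adjusted p = 0.0054). The large-subunit gene rpl-34 (110 residues) had 187, 332, 390 and 369 CPM in SoLo libraries, against 80.1, 144, 164 and 177 CPM in SMARTseq libraries, with 1.18 ± 0.30 (adjusted p = 0.0087). In all 3 genes every SoLo library exceeded every SMARTseq library, and library 1 was the lowest in its kit.

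**Figure D4:**
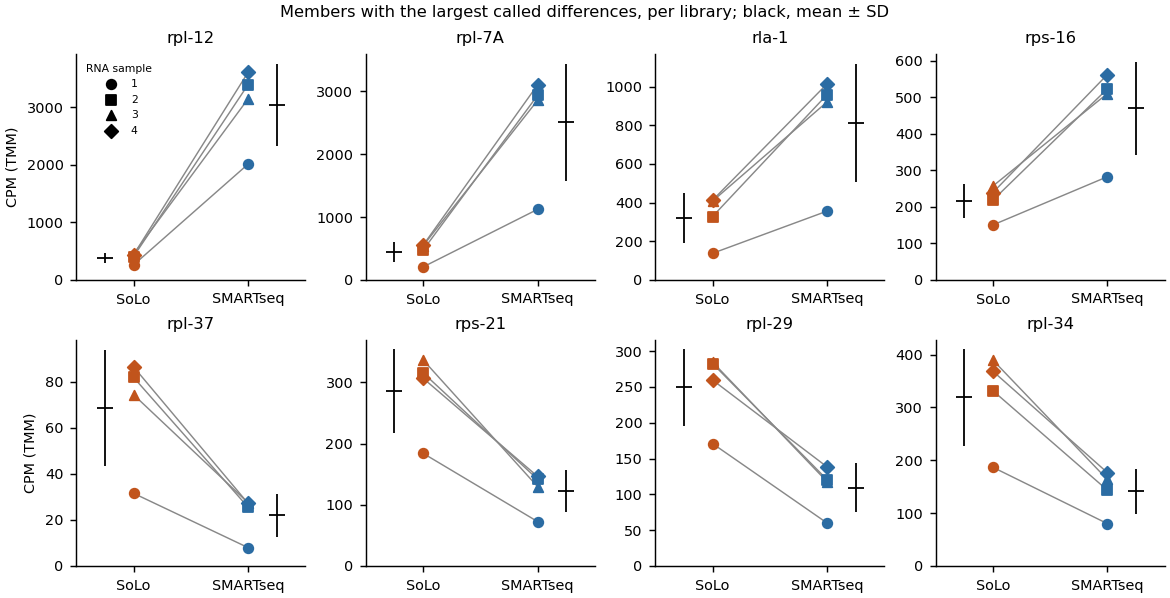
CPM per library (linear axes from 0) of 4 members called higher in SMARTseq (top) and 4 called higher in SoLo (bottom), with lines joining the libraries of 1 RNA sample and bars for mean ± SD of 4 libraries. Every line goes up to SMARTseq in the top row, from rpl-12 at 259 to 448 CPM in SoLo and 2011 to 3607 CPM in SMARTseq, and every line goes down in the bottom row.

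Longer members were called higher in SoLo too. The gene rpl-2 encodes a protein near the peptidyl transferase centre and averaged 912 ± 172 CPM in SoLo and 456 ± 103.9 CPM in SMARTseq (SD, n = 4 each; log2 fold change 1.0 ± 0.21, adjusted p = 0.0033). The large-subunit gene rpl-7 averaged 764 ± 122 CPM in SoLo and 463 ± 77.9 CPM in SMARTseq (0.72 ± 0.18, adjusted p = 0.0075). For these 2 genes the kits did not overlap. The kits did overlap for rps-6, the ribosomal substrate of S6 kinase in the growth signalling of the TOR pathway, with 494 ± 129 CPM in SoLo and 254 ± 84.1 CPM in SMARTseq (0.96 ± 0.29, adjusted p = 0.021).

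The other 5 members called higher in SoLo were rps-24 (log2 fold change 1.01 ± 0.33), rpl-22 (0.99 ± 0.28), rpl-21 (0.89 ± 0.31), rpl-41 (0.86 ± 0.28) and rps-30 (0.83 ± 0.25), which is made as a fusion with a ubiquitin-like protein. Their adjusted p-values lay between 0.016 (rpl-22) and 0.038 (rpl-21) in edgeR's test. When 1 library was left out at a time, rps-24 and rpl-21 lost the call in 6 of the 8 fits, rpl-41 in 4, rps-6 in 2 and rps-30 in 1, while the other 8 members called higher in SoLo kept it in all 8.

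With the block 39 further members were higher in SoLo, with log2 fold changes from 0.24 (rpl-3) to 0.87 (rpl-26, at the exit tunnel). The large-subunit gene rpl-24.1, paralogue of rpl-24.2, had 331, 706, 712 and 744 CPM in SoLo libraries, against 181, 406, 369 and 457 CPM in SMARTseq libraries. SoLo was higher in every RNA sample, while its library 1 lay below SMARTseq libraries 2 to 4. The adjusted p was 0.064 without the block and 2.9e-06 with it, at log2 fold changes of 0.82 and 0.83. Among the most abundant members, rpl-4, whose protein lines the exit tunnel, averaged 875 ± 211 CPM in SoLo and 675 ± 165 CPM in SMARTseq (0.38, adjusted p = 0.0014 with the block). In neither direction were 19 members called with the block. The least abundant member, rpl-42, had 11, 5, 9 and 6 reads in SoLo libraries, against 37, 11, 17 and 19 reads in SMARTseq libraries. Its log2 difference of -0.89 ± 0.43 did not pass without the block (adjusted p = 0.11) or with it (adjusted p = 0.18).

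By place in the ribosome, the calls were spread thinly. The proteins of rpl-5 and of the pair rpl-11.1 and rpl-11.2 bind the smallest large-subunit rRNA before it is built in. None of these 3 genes passed without the block, where their log2 differences were 0.70 ± 0.28, 0.29 ± 0.26 and 0.28 ± 0.22, and with it rpl-5 (adjusted p = 2.1e-05) and rpl-11.2 (adjusted p = 0.021) were higher in SoLo. Around the exit tunnel, through which the growing chain leaves, 0 of 7 genes passed without the block. With it rpl-26, rpl-31 and rpl-35 were higher in SoLo and rpl-19 higher in SMARTseq, and the median of the 7 was 0.26 in both fits. Of 4 genes at the decoding site and the mRNA channel, rps-30 was the only one called; rps-3 and rps-23, which sit at the channel and the decoding centre, had log2 differences of -0.14 ± 0.30 and 0.17 ± 0.24, and rps-2 was called higher in SoLo with the block alone (adjusted p = 0.017). In the head of the small subunit 11 of 12 genes had positive values with a median of 0.36; rps-16 was the single call without the block, and 8 genes were called higher in SoLo with it. The background of calls for all these counts is that given above for the whole table.

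The balance of paralogous pairs was alike between the kits for rpl-11 and less so for rpl-24 and rpl-25. The gene rpl-11.1 took 20.9% ± 1.67 of the reads of rpl-11.1 and rpl-11.2 in SoLo and 20.96% ± 1.27 in SMARTseq (SD, n = 4 each). In the pair rpl-25.1 and rpl-25.2, which encode an exit-tunnel protein, rpl-25.1 took 73.2% ± 0.67 in SoLo and 78.5% ± 1.52 in SMARTseq, with no SoLo library reaching any SMARTseq library. The gene rpl-24.1 took 96.4% ± 1.87 in SoLo and 97.9% ± 0.34 in SMARTseq of the reads of rpl-24.1 and rpl-24.2, and here the kits overlapped. Per length of exon the level of rpl-24.1 was 32.9 times that of rpl-24.2 in SoLo and 51.0 times in SMARTseq. Whether reads matching both copies were counted is not given in the sources used here, so these shares are uncertain by that amount.

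Per length of exon the members had a longer upper tail in SMARTseq than in SoLo. The median level over 78 members with a known length was 623 CPM per kilobase in SoLo and 509 CPM per kilobase in SMARTseq. Within 2-fold of their kit's median lay 72 of 78 members in SoLo and 62 of 78 in SMARTseq, while the interquartile range on the log2 scale was 0.70 in both. The SMARTseq members beyond 2-fold lay on both sides of the median. The highest per-length level was that of rla-0 in SoLo (1532 CPM per kilobase) and that of rpl-12 in SMARTseq (3798 CPM per kilobase). In SMARTseq the order at the top was rpl-12, rpl-7A, rla-1 and rla-0, whereas in SoLo rpl-12 ranked 63rd, rpl-7A 56th and rla-1 30th of 78. The gene rps-16 ranked 64th in SoLo and 8th in SMARTseq. Lowest in both kits were rpl-42 (3.12 CPM per kilobase in SoLo, 5.84 in SMARTseq) and rpl-24.2 (34.8 in SoLo, 12.7 in SMARTseq), and rpl-37 and rpl-11.1 were also among the 5 lowest of each kit. Across the 78 genes the per-length levels of the kits had a Spearman correlation of 0.64, as a description, since the libraries share their RNA.

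**Figure D5:**
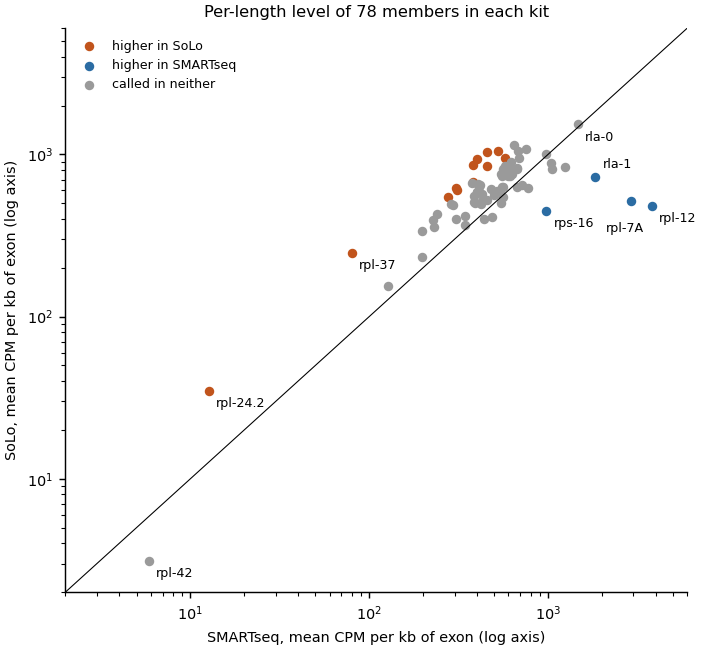
Mean level per kilobase of exon of 78 members in SoLo (vertical, log axis) and in SMARTseq (horizontal, log axis), coloured by the call without the replicate block; the diagonal marks equal levels. The genes rpl-12, rpl-7A, rla-1 and rps-16 lie to the right of the cloud, rpl-37 and rpl-24.2 above the diagonal, and rpl-42 at the lower left.

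The 78 genes with an annotation were all protein-coding, with 51 to 401 residues, and short. Their median exonic length was 538 bases, against 1442 bases for the tested protein-coding genes. Over all 10636 tested protein-coding genes the log2 fold change had a Spearman correlation of 0.30 with log2 exonic length, longer genes being higher in SoLo, and over the 78 members the correlation was -0.23, shorter members being higher in SoLo. At the members' lengths the trend of the other genes ran at a median log2 value of -0.74. With that trend taken out the members' median was 1.15, and 73 of 78 values were positive. Among members cut into equal groups by length, the shortest 26 (236 to 480 bases) had a median of 0.50, the middle 26 (482 to 665 bases) 0.28 and the longest 26 (669 to 1456 bases) 0.34. Length is one of several properties that differ between these genes, and its part in the kit difference was not tested.

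By chromosome, 23 members lie on I, 9 on II, 18 on III, 18 on IV, 8 on V and 2 on X. The median log2 fold change was 0.30, 0.47, 0.51, 0.35, 0.48 and 0.06 on these chromosomes in that order. Annotated transcripts without a coding sequence exist for 7 members, among them rpl-1, rpl-3 and rpl-12 but not rpl-7A. Exons of 15 members share bases with an exon of another gene, up to 18.7% in rps-20, which holds the microRNA gene cel-mir-354. Among the 63 members with no such overlap, 9 were higher in SoLo and 1, rpl-12, was higher in SMARTseq, beside the backgrounds of 20% and 27.6% over all tested genes. The counts with the block were 41 and 5, beside backgrounds of 28.9% and 32.2%.

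Introns of 13 members hold 19 annotated snoRNA genes, none of which shares a base with an exon of its host. snoRNAs guide chemical modification of ribosomal RNA and carry no poly(A) tail. Of the 19, 15 passed the filter, with 100 to 1554 reads in SoLo and at most 19 reads in SMARTseq over 4 libraries. These passed only through their SoLo reads, so that a higher value in SoLo was fixed by the filter and is given as a description. Of the 4 that did not pass, Y43B11AR.7 in rps-4 had 1 read in SoLo and 5 in SMARTseq. For the 15 the median log2 fold change was 7.79, or 7.29 when the 3 genes with 0 SMARTseq reads were set to their bound at 3 counts over the 4 libraries. A further 5 had 1 to 3 SMARTseq reads, at or below that bound, and kept their fitted values. Over all 119 tested snoRNA genes, the hosted ones included, the median was 7.05, with 106 higher in SoLo and 8 higher in SMARTseq. A high SoLo value is thus not particular to the hosted snoRNAs. The host genes had a median of 0.62 (2 higher in SoLo, 1 higher in SMARTseq), against 0.35 for the 65 members without a snoRNA (10 higher in SoLo, 3 higher in SMARTseq). The block gave 10 hosts higher in SoLo and 1 in SMARTseq, against 41 and 7 of the members without a snoRNA. The backgrounds over all tested genes were 20% and 27.6% without the block, and 28.9% and 32.2% with it.

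The direction of the snoRNAs below was fixed by the filter, so their values are set beside those of the hosts as a description only. The host rpl-7A was higher in SMARTseq. Its intronic snoRNA Y24D9A.9, 221 bases at 4390088 to 4390308 on chromosome IV, had 1554 reads in SoLo and 19 in SMARTseq, or 112 ± 24.12 CPM in SoLo and 0.969 ± 0.794 CPM in SMARTseq (SD, n = 4 each). Its log2 fold change was 6.81 ± 0.50, beside -2.50 for the host. For rps-12, host of F54E7.11, the snoRNA stood at 7.79 ± 0.41 and the host at 0.83 ± 0.38 (adjusted p = 0.097 without the block, 5.7e-06 with it). For rps-23, host of F28D1.13, the values were 5.06 ± 0.61 for the snoRNA and 0.17 ± 0.24 for the host (adjusted p = 0.59).

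Other genes of the translation machinery were set beside the members. The genes of 2 ribosomal proteins that are made as fusions with ubiquitin lie outside the name rule: ubl-1 (small subunit) was higher in SoLo by 0.82 ± 0.28 on the log2 scale (adjusted p = 0.035), and ubq-2 (large subunit) had 0.09 ± 0.20 (adjusted p = 0.74). Among 66 mitochondrial ribosomal proteins 8 were higher in SoLo and 3 in SMARTseq, with a median of 0.09. The block raised these counts to 16 and 5. Among 27 initiation and elongation factors 6 were higher in SoLo and 5 in SMARTseq, with a median of 0.11 and a wide range. Here the counts with the block were 10 and 6. The backgrounds over all tested genes were 20% and 27.6% without the block, and 28.9% and 32.2% with it.

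The elongation factors included differences as large as that of rpl-12. The translocation factor eef-2 had 825, 930, 1091 and 985 CPM in SoLo libraries, against 7858, 9285, 10147 and 8763 CPM in SMARTseq libraries (log2 fold change -3.23 ± 0.14, adjusted p = 5.6e-07). The gamma subunit of the exchange factor, eef-1G, had 318, 454, 498 and 485 CPM in SoLo libraries, against 3329, 5566, 5329 and 5473 CPM in SMARTseq libraries (-3.49 ± 0.22, adjusted p = 2.3e-06). In both genes the kits were far apart. The scaffold of the cap-binding complex, ifg-1, went the other way, with 165 ± 18.4 CPM in SoLo and 24.8 ± 4.15 CPM in SMARTseq (2.73 ± 0.19, adjusted p = 3.4e-06). The translation factor eef-1A.1, which brings aminoacyl-tRNA to the ribosome, had 0.11 ± 0.15 (adjusted p = 0.60).

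Of 11 nucleolar and ribosome assembly genes 5 were higher in SoLo and 0 higher in SMARTseq, with a median of 0.71; pro-3 stood at 2.404 ± 0.42 (adjusted p = 0.0012) and the methyltransferase gene fib-1 at -0.47 ± 0.41 (adjusted p = 0.38). With the block 6 of the 11 were higher in SoLo, and fib-1 passed as higher in SMARTseq (adjusted p = 0.035). Of 2 further lists of housekeeping complexes, the 31 tested proteasome genes had 4 higher in SoLo and 5 higher in SMARTseq with a median of 0.25, and 0 of 5 atp genes of the ATP synthase passed in edgeR's test in either direction, with a median of 0.34. The block gave 12 proteasome genes higher in SoLo and 7 higher in SMARTseq. The 5 atp genes include atp-6, which is encoded in the mitochondrial genome, and 3 were called higher in SoLo and 1 higher in SMARTseq with the block. Beside the counts of these 3 lists, 20% of all tested genes were higher in SoLo and 27.6% higher in SMARTseq without the block. With the block the backgrounds were 28.9% and 32.2%.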

How the data were processed

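RNA sequencing libraries of sorted neurons were compared between 2 kits, 4 libraries each. The values deposited by the authors are raw read counts for each gene in each library, with no normalisation. STAR, SAMtools, featureCounts and build WBcel235 are named, without versions or settings, per the submitters' processing notes. Strandedness, the handling of multiply aligned reads and the annotation used for counting were not given in the sources. The table held 46748 genes, and 0 columns were of unlisted samples. Totals ran from 2354681 to 7099497 counts per library. Reads are not known to be independent molecules, so floors cover counting error only.

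Counts were tested with edgeR 4.0.16 in R 4.3.3 (quasi-likelihood test, TMM factors, filterByExpr by kit, 8 libraries, Benjamini-Hochberg adjustment over 11378 genes, adjusted p under 0.05). Standard errors were approximated as |log2 fold change| divided by the root of F. CPM values use the TMM factors. Genes were looked up by name in Ensembl release 115 (WBcel235), which found 43948 genes holding 96.7% of counts. Of the 79 members 78 matched, and rpl-41 is given without length or position. Exonic length is the union of annotated exons. The length trend is a lowess curve with a span of 0.3 over tested protein-coding genes. On simulated data the fit without the block called 4.17% of 96 genes changed 2-fold and 54.5% of 99 changed 4-fold. It called 0.0186% of 10780 unchanged genes. Only 200 genes were changed in the simulation, against 47.6% of tested genes called in the data, so its adjustment was stricter. These rates are therefore not those of the fit to the data. A gene that did not pass may still differ by 2-fold or more.

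Each RNA sample was split between the kits, per the labels, so the replicate numbers pair the libraries. Deviations from the kit means of same-numbered libraries had correlations of 0.74, 0.34, 0.33 and 0.30. SoLo library 4 with SMARTseq library 3 had 0.32, and SoLo library 3 with SMARTseq library 4 had 0.31. These values do not tell RNA samples 3 and 4 apart, and their pairing rests on the labels. Values with the replicate block are given for the counts of calls by list and for part of the single genes whose call it changes. DESeq2 1.42.0, other scalings and filters, and fits without single libraries or RNA samples were alternatives.

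The members and lists were chosen with earlier results of these data known. Genes were named by rule: the 6 highest and 6 lowest called log2 fold changes, the 5 most and 5 least abundant, numbered pairs, fixed structural groups, and called members that lose a call. The remaining called members were named after their values were seen.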

Additional observations from a re-analysis of the deposited data

Results flagged for a closer look

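In 25 groups of 4 libraries (among 51 named members and the summed share of the members, each in both kits), the gap between the most distant library and its nearest neighbour, as a fraction of the group's range, was above Dixon's 95% critical value, which chance alone passes in about 1 of 20 groups. In 24 of the 25 the distant library was library 1 of its kit, on the low side. In SoLo the fractions were 0.949 for rps-17, 0.91 for rpl-22, 0.907 for rpl-24.1, 0.863 for rpl-21, 0.86 for rps-15, 0.858 for rps-19, 0.852 for rps-12, 0.852 for rps-24, 0.843 for rps-23 and 0.835 for rpl-5. The exception was rpl-24.2 in SoLo, where library 2 was low (0.874). In SMARTseq they were 0.951 for rps-3, 0.93 for rps-18, 0.927 for rla-0, 0.918 for rps-19, 0.916 for rpl-1, 0.90 for rpl-37, 0.898 for rpl-22, 0.876 for rpl-7A, 0.858 for rla-1, 0.854 for rpl-4, 0.843 for rps-24, 0.839 for rpl-27, 0.836 for rps-30 and 0.835 for rpl-25.1. The members are measured in the same libraries, so these are not independent signs. The germline, hypodermis and body wall muscle sums were also lowest in library 1 of both kits, and their part in the low values was not tested. Single genes of the germline and muscle lists did not all follow their sums, and 3 of 5 muscle genes were highest there in SoLo.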

How the results depend on the processing

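The replicate block (same-numbered libraries as pairs) gave 52 members higher in SoLo and 8 higher in SMARTseq, with the same sign for every member as without it. With library totals there were 56 and 2 (median 0.95), with upper-quartile factors 25 higher in SoLo (median 0.61), with DESeq2 22, and without RNA sample 1 there were 48 and 9. With RNA samples 2 to 4 summed there were 0 and 1 (median 0.56) in a fit with 2 libraries per kit, and 55 higher in SoLo (median 0.55) when the replicate block was added. Members without exon overlap gave 1 higher in SMARTseq, the length trend taken out gave a median of 1.15, and the count of a like direction in all 4 RNA samples, added after the data were seen, gave 60 and 11. Leaving out 1 library at a time gave 9 to 39 higher in SoLo, 3 to 8 higher in SMARTseq and a median of 0.18 to 0.60. Relative to all tested genes the median of the members stayed above in every fit, by 0.16 (without SMARTseq library 1) to 0.58 (without SoLo library 1).

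Among the 51 named members, signs turned only for ones not called in edgeR without the block. With library totals the values were 0.18 for rpl-10, 0.22 for rps-14, 0.47 for rpl-17, 0.31 for rpl-19, 0.38 for rpl-25.1 and 0.40 for rps-3. With upper-quartile factors they were 0.13 for rpl-17, 0.043 for rpl-25.1 and 0.060 for rps-3. With no filter rpl-17 had 0.0092, with DESeq2 0.025, with samples 2 to 4 summed 0.10 and with the block added 0.11, where rps-3 had 0.0051 and 0.018. Without single libraries the ranges were -0.20 to 0.32 for rla-0, -0.12 to 0.32 for rpl-1, -0.32 to 0.17 for rpl-17, -0.33 to 0.026 for rpl-25.1, -0.093 to 0.43 for rps-17, -0.14 to 0.37 for rps-18, -0.016 to 0.37 for rps-23, -0.38 to 0.10 for rps-3 and -0.091 to 0.37 for rps-5. The cause was not tested. The member with the least depth was rpl-42, at 1.77 to 6.27 CPM per library; it was lower in SoLo in all 4 RNA samples and did not pass the test.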
